A study of Mus musculus with 8 samples.

Results

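The genes described here are the 10 mouse genes of the teneurin, latrophilin and FLRT families: Tenm1 to Tenm4, Adgrl1 to Adgrl3, and Flrt1 to Flrt3. They were found by their Entrez identifiers among 27179 genes, and all 10 had a row in the count table. RNA was sequenced from 4 Kat7 deleted (Kat7 lox/lox NesCre T/+) and 4 Kat7 intact (Kat7 +/+ NesCre T/+) cultures of proliferating neural stem and progenitor cells, grown as neurospheres from C57BL/6 E14.5 fetuses. Every fetus, the intact ones included, carried the Cre recombinase transgene driven by Nestin, a gene of neural progenitors, so deletion depends on where and when that driver acts. Each fetus gave 1 library. Deleted replicates 3 and 4 were littermates, as were intact replicates 1 and 2, and deleted and intact fetuses always came from different litters, so effects of litter and of genotype cannot be told apart. Whole families were taken by name, but they were chosen by someone who knew earlier results of these libraries, and the CPM values (read counts scaled to the size of each library) of deleted and intact libraries are counted as used in that choice. All values that set the genotypes side by side for these 10 genes are therefore a description, given with no p. A gene is named as called where it passed the threshold of a fit across all genes, and for these 10 genes a call is not independent evidence of a difference.

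Teneurins are very large transmembrane proteins of the cell surface that guide axon targeting and synapse formation. Their partners across the cell contact are the latrophilins, adhesion G protein-coupled receptors. FLRT proteins, which carry leucine-rich repeats outside the cell, bind latrophilins too, and also bind the Unc5 guidance receptors. In the developing cortex these contacts are known for steering migrating neurons and for sorting which axon meets which target.

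Tenm3 and Flrt3 were low in every Kat7 deleted culture. Flrt2, Adgrl3 and Tenm4 were lowest in deleted replicates 2 and 4, and Adgrl1 stayed within a narrow range in all 8 libraries. Promoter sequences are shown for Tenm3 and Flrt3, the pair that was low throughout, and for Flrt2, which had 1 and 0 reads in deleted replicates 2 and 4. Each runs 5′ to 3′ on its own strand from 250 bases before to 50 bases after a RefSeq transcript start in GRCm38.p6, with CG dinucleotides in capitals.
Tenm3, chr8:48674641-48674940, minus strand: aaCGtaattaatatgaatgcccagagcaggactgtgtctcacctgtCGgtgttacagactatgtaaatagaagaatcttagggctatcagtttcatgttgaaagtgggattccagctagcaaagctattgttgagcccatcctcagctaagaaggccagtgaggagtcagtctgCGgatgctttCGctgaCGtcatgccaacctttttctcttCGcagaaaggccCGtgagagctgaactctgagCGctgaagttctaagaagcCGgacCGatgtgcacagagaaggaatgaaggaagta
Flrt3, chr2:140671427-140671726, minus strand: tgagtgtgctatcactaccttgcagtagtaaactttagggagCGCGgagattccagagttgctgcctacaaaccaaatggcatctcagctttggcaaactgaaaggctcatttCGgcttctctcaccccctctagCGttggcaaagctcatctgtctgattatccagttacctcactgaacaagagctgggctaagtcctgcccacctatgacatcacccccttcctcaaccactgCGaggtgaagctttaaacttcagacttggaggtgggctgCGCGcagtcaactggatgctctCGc
Flrt2, chr12:95691976-95692275, plus strand: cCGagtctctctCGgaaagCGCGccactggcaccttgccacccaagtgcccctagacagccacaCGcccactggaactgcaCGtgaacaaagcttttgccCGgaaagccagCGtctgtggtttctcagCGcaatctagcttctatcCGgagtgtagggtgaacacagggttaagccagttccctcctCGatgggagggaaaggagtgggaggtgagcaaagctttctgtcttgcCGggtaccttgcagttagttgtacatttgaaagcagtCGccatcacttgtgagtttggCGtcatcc

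The Tenm3 window held 10 CG dinucleotides, and 43.5% of the 32851 RefSeq promoter windows of the same length held as many or more. For Flrt3 the number was 8, reached by 48.6% of windows, and for Flrt2 it was 14, reached by 36.3%. The E-box letters CANNTG, which read the same on either strand, occurred 1 time for Tenm3, 3 times for Flrt3 and 4 times for Flrt2. At least 1 such match was present in 72.3% of all windows. The counts are per gene and do not tell which transcript start was used. The Tenm3 start lies inside the gene, which GENCODE places at 48227682 to 48843951 of chromosome 8. Of the 10 genes, 9 matched the RefSeq promoter table.

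Kat7 itself was low in every deleted library, but unevenly so. It stood at 31.4%, 0.437%, 16.5% and 0.104% of the intact mean in deleted replicates 1 to 4, with 416, 4, 253 and 1 reads. Its mean was 10.2 ± 12.6 CPM (on library sizes scaled by edgeR's TMM method) in deleted and 84.0 ± 6.46 CPM in intact libraries (SD, n = 4 each; exact two-sided permutation test p = 0.0286, the smallest that 70 arrangements allow). That test treated every library as a separate unit and took no account of littermates. The fitted log2 fold change of Kat7 was -3.02 ± 1.10 (edgeR quasi-likelihood test, adjusted p = 0.128). Library totals ran from 10687817 to 18280518 counts in deleted and from 13403953 to 22444359 in intact cultures. The mitochondrial share was 29.9%, 18.95%, 17.1% and 34.4% in deleted replicates 1 to 4, against 18.95% to 23.5% in intact libraries. Neural stem cell markers such as Nes, Vim and Sox2 summed to 3989 to 7050 CPM in deleted and 5730 to 6795 CPM in intact libraries, over 10 genes of which 0 were called. The highest sum, in deleted replicate 1, included Slc1a3 at 3037 CPM, against 543 to 1279 CPM in intact libraries. In that library Nes at 831 CPM and Vim at 1105 CPM were lower than in any other, and Sox2 at 272 CPM was higher. Of 13498 tested genes, edgeR called 1066 (Benjamini-Hochberg adjusted p under 0.05), 688 higher and 378 lower in deleted cultures. With total counts as the only scaling the calls were 309 higher and 364 lower, and the median over all tested genes was -0.09 on the log2 scale, against 0.05 with TMM scaling.

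**Figure D1:**
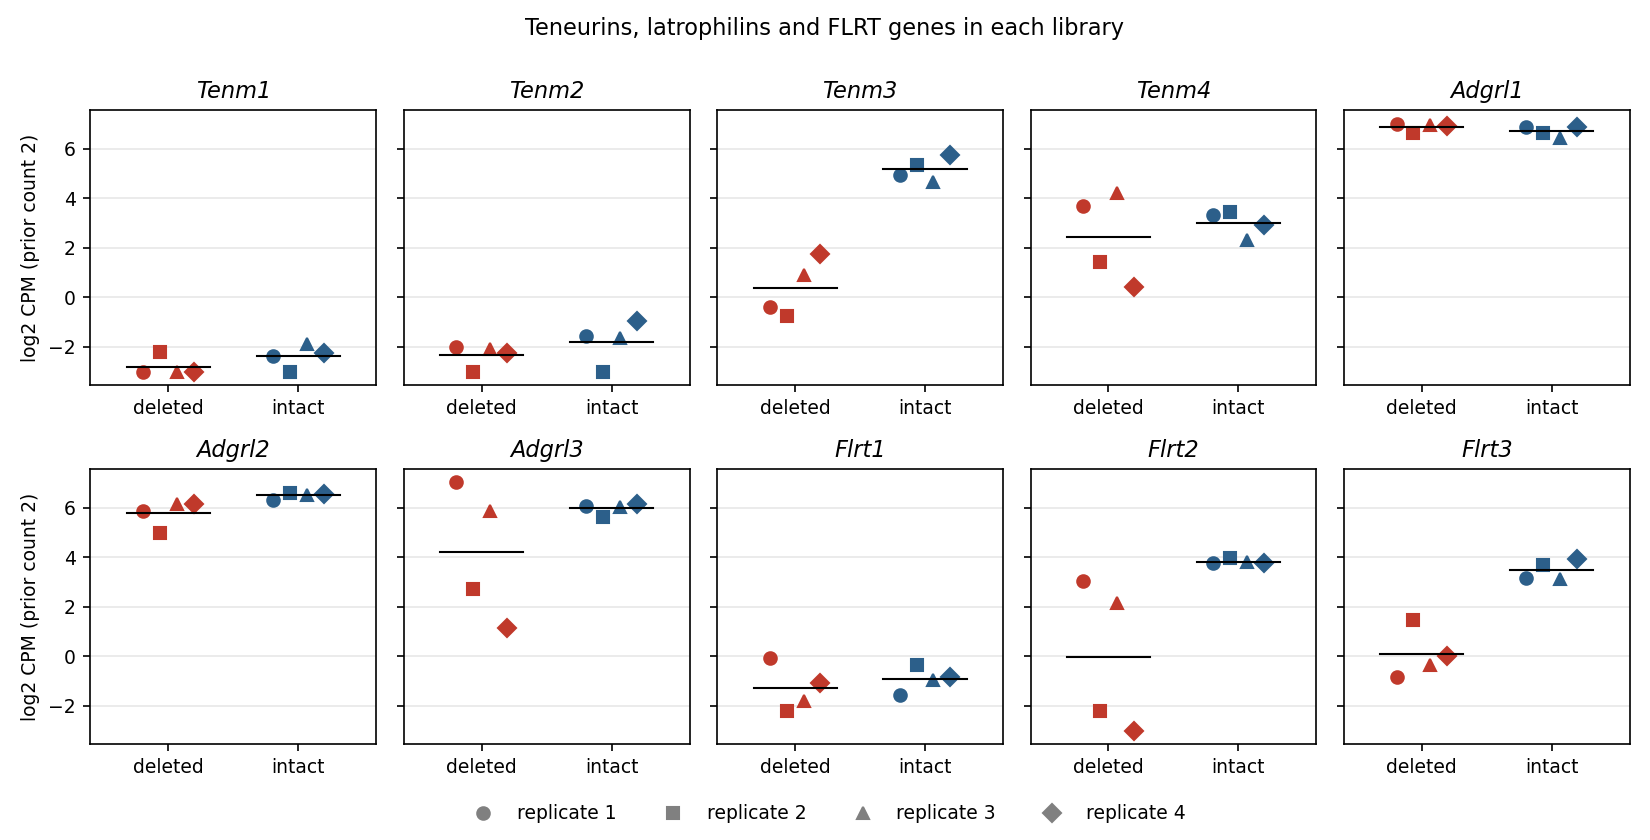
Level of each of the 10 genes in each library, as log2 CPM with a prior count of 2, with deleted libraries left of intact ones, a marker shape per replicate and a line at the mean of 4. All deleted points lie below all intact points for Tenm3, Flrt3, Flrt2 and Adgrl2, and Tenm1, Tenm2 and Flrt1 lie near the bottom of the axis in both genotypes.

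Of the 10 genes, 7 had enough reads to be tested, and 2 of these, Tenm3 and Flrt3, were called lower. Over all tested genes 2.80% were called lower and 5.10% higher, and 0 of the 7 were called higher by edgeR, with 0 also by DESeq2. The deleted and intact ranges did not overlap for 4 of the 7, all lower in deleted cultures, against 9.21% of all tested genes. The median log2 fold change was -0.64 over the 7 and 0.05 over all tested genes. Nothing is read from these shares, since the genes were taken up with the same comparison in view and a gene can reach the test through the genotype in which it is high. Tenm3, Flrt3 and Flrt2 needed their intact reads to be tested, with as few as 5, 7 and 0 reads in a deleted library. In bulk RNA, fewer cells that express a gene and less RNA of it per cell cannot be told apart.

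Among the teneurins Tenm3 had by far the most RNA per length in intact cultures. It is known for matching axons to targets in the visual system and hippocampus, and lies on the minus strand of chromosome 8. Tenm3 stood at 0.634, 0.459, 1.76 and 3.22 CPM in deleted replicates 1 to 4 and at 30.6, 40.1, 24.6 and 53.6 CPM in intact replicates 1 to 4. Every deleted library lay below every intact one, and the highest deleted library, replicate 4, held 8.64% of the intact mean. The mean was 1.52 ± 1.27 CPM in deleted and 37.2 ± 12.6 CPM in intact libraries (SD, n = 4 each), a log2 fold change of -4.62 ± 0.58. In reads this was 10, 5, 32 and 37 in deleted libraries against 430 to 1228 in intact ones. Tenm3 was low in both deleted cultures that kept Kat7 reads and in both that nearly lacked them. The difference moved most with deleted replicate 4, without which the log2 fold change was -5.22.

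Tenm4, a teneurin with a known part in oligodendrocyte development and myelination, divided the deleted cultures. It lies on chromosome 7 at 96171246 to 96911093. Tenm4 stood at 12.6, 2.57, 18.4 and 1.22 CPM in deleted replicates 1 to 4 and at 9.77, 10.6, 4.89 and 7.46 CPM in intact replicates 1 to 4. Deleted replicates 1 and 3 were above every intact library and deleted replicates 2 and 4 below every one. The means of 8.68 ± 8.21 and 8.19 ± 2.58 CPM in deleted and intact libraries (SD, n = 4 each) hide this division. The fitted log2 fold change was 0.10 ± 0.73, and its sign turned under 7 of the 20 alternative settings, total-count scaling among them. Tenm1 and Tenm2 were barely detected. Tenm1 had 0 to 1 reads in deleted and 0 to 3 in intact libraries, and Tenm2 had 0 to 2 and 0 to 9. A count of 0 allows up to 0.275 CPM in the shallowest library, deleted replicate 2 (3 counts, counting error only).

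Per length, the latrophilins were the most abundant of the 10 genes in intact cultures. They behaved differently from each other. Adgrl1, first known as a receptor for the black widow toxin alpha-latrotoxin, stood at 126, 98.05, 123 and 120 CPM in deleted replicates 1 to 4 and at 116, 98.97, 85.1 and 115 CPM in intact replicates 1 to 4. The ranges overlapped, and the log2 fold change was 0.17 ± 0.14. In all 21 settings it was above 0, between 0.03 and 0.24, and it was called in none of them.

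Adgrl2, a latrophilin that positions synapses on hippocampal neurons, stood at 58.3, 31.8, 70.9 and 70.4 CPM in deleted replicates 1 to 4. Intact replicates 1 to 4 held 79.6, 95.7, 90.5 and 94.5 CPM. Each deleted library was below each intact one, the nearest pair being 70.9 CPM in deleted replicate 3 and 79.6 CPM in intact replicate 1. The log2 fold change was -0.64 ± 0.23 and it was not called. Without deleted replicate 2, the lowest library, the value was -0.44 and the gene was called, as in only 1 of the 21 settings. Leaving out that library also raised the calls over all tested genes from 1066 to 2182.

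Adgrl3 showed the widest spread of any latrophilin. Its human counterpart is known from association studies of attention deficit hyperactivity disorder. Adgrl3 stood at 131, 6.43, 58.3 and 2.09 CPM in deleted replicates 1 to 4 and at 66.9, 48.7, 65.5 and 70.7 CPM in intact replicates 1 to 4. Deleted replicate 1 was above every intact library and deleted replicate 3 among them, while deleted replicates 2 and 4 held 10.2% and 3.31% of the intact mean. Deleted replicates 3 and 4 came from 1 litter, so these littermates stood far apart. The log2 fold change over all libraries was -0.34 ± 0.97, and it turned to 0.03 without deleted replicate 2 and 0.06 without deleted replicate 4. Adgrl3 shares 8.91% of its annotated exon bases with an antisense transcript, and Adgrl1 shares 12.9% with a gene on the other strand. These shares are of GENCODE exon bases, 17750 for Adgrl3, whereas the deposited length of that gene is 5812 bases. Whether the shared stretches were part of the counted exons is therefore not known. The strand setting of the counting is not given in the sources used here, so any reads counted in those stretches cannot be assigned.

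Flrt3, which in Xenopus and mouse is known to modulate FGF signalling and cell adhesion, was low in all deleted cultures. It lies on chromosome 2 inside an intron of Macrod2 on the opposite strand, and shares 0 exon bases with it in GENCODE. Flrt3 stood at 0.444, 2.66, 0.659 and 0.870 CPM in deleted replicates 1 to 4 and at 8.77, 12.7, 8.51 and 15.1 CPM in intact replicates 1 to 4. No deleted library reached the lowest intact one, and the nearest was deleted replicate 2. The log2 fold change was -3.32 ± 0.55, and -4.11 without deleted replicate 2. Its call was lost without intact replicate 2 or 4 and with littermates summed.

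Flrt2, a repellent ligand for Unc5 receptors on migrating neurons, stood at 8.05, 0.0918, 4.28 and 0 CPM in deleted replicates 1 to 4. Among intact replicates 1 to 4 it was at 13.5, 15.4, 13.7 and 13.4 CPM, with a mean of 14.0 ± 0.917 (SD, n = 4). As raw counts, deleted replicates 2 and 4 held 1 and 0 reads, where 0 reads in replicate 4 allow up to 0.261 CPM. Deleted replicates 1 and 3 kept 57.5% and 30.6% of the intact mean, so they too were below all intact libraries. The steadiest of these genes in the intact genotype was thus among the most variable in the deleted one, with an SD of log2 CPM of 3.05 in deleted and 0.09 in intact libraries. Over all tested genes the median SD was 0.38 in deleted and 0.17 in intact libraries. The size of the deleted SD of Flrt2 depends on the prior count, because deleted replicates 2 and 4 held 1 and 0 reads. The fitted log2 fold change was -2.14 ± 1.07 and it was not called. It was -3.13 without deleted replicate 1 and -3.81 with litter as a random block, and was not called in either. Flrt1 had 1 to 13 reads in deleted and 3 to 11 in intact libraries and was not tested.

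**Figure D2:**
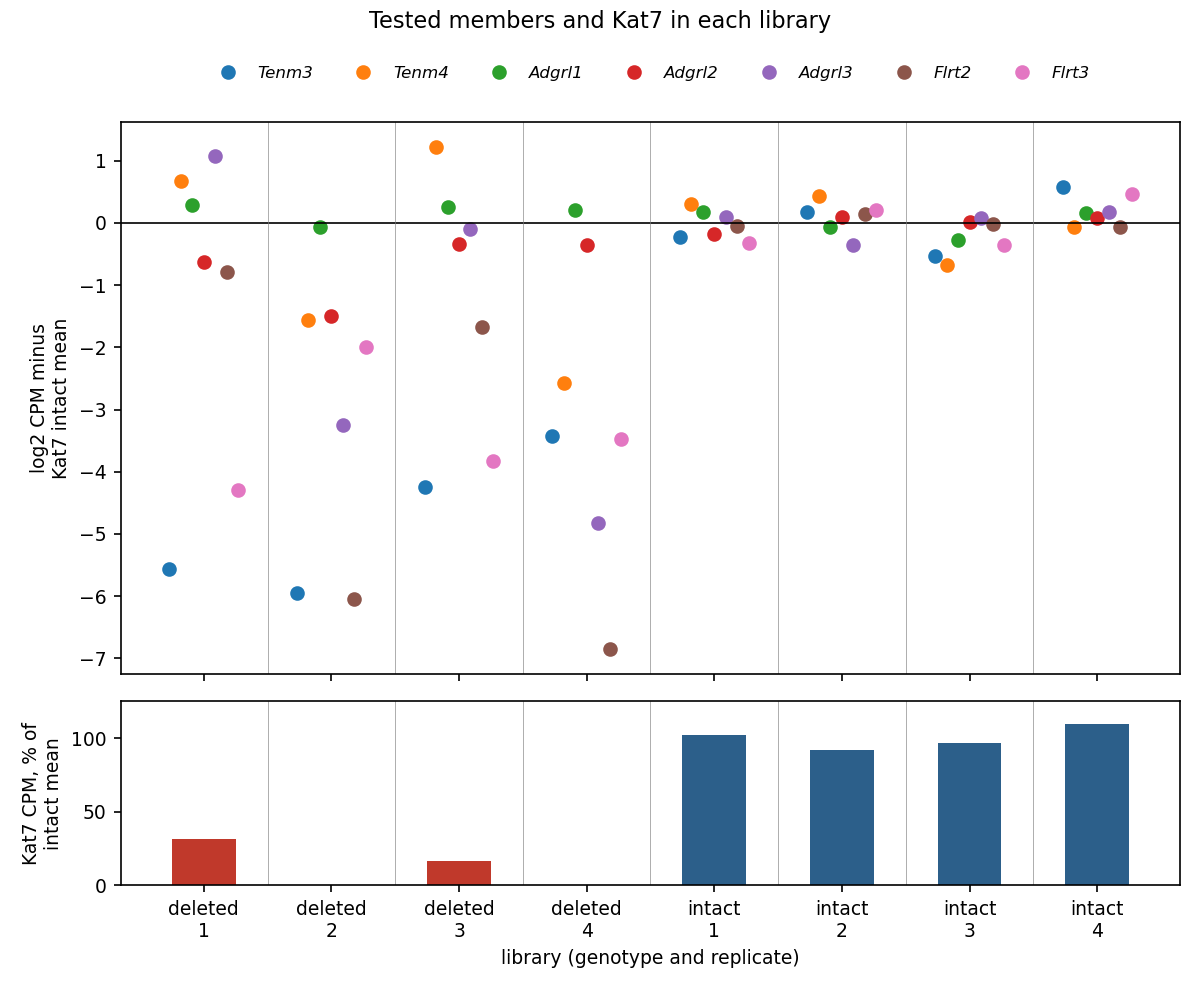
Upper panel, log2 CPM (prior count 2) of the 7 tested genes minus the mean of the intact libraries, for each library; lower panel, Kat7 CPM as a percentage of the intact mean. Tenm3 and Flrt3 lie well below 0 in all 4 deleted libraries, whereas Flrt2, Adgrl3 and Tenm4 are lowest in deleted replicates 2 and 4, where Kat7 is at 0.437% and 0.104%.

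The 7 tested genes thus showed patterns that differed by deleted library. Tenm4, Adgrl3 and Flrt2 were lower in deleted replicates 2 and 4 than in any of the other 6 libraries, which held for 10.5% of all tested genes. Deleted replicates 2 and 4 are the cultures with 4 reads and 1 read of Kat7. When deleted replicates 1 and 3, the cultures with Kat7 reads, were left out, 5 of the 7 genes were called lower: Tenm3, Tenm4, Adgrl3, Flrt2 and Flrt3. In that comparison 8.26% of 13797 tested genes were called lower. The log2 fold change was then -3.89 for Adgrl3, -2.11 for Tenm4, -4.32 for Tenm3 and -2.68 for Flrt3. For Flrt2 it was -8.06, a value that rests on 1 read in the deleted libraries and depends on the prior count. The libraries to leave out were picked for their Kat7 reads, and this pattern was seen in the same libraries, so it is a description.

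Marker levels of other cell types also differed between the deleted libraries. Pericyte and mesenchyme markers, 10 genes including Acta2, Col3a1 and Thbs2, summed to 5.90, 783, 22.7 and 242 CPM in deleted replicates 1 to 4 and to 3.13 to 4.42 CPM in intact libraries. A few of them carried these sums. Acta2 stood at 191 CPM and Thbs2 at 172 CPM in deleted replicate 2, and at 106.5 and 132 CPM in deleted replicate 4. Col3a1 at 333.5 CPM and Dcn at 84.1 CPM were high in deleted replicate 2 alone, with 0.0870 CPM each in deleted replicate 4. Pdgfrb, Rgs5 and Lum were at most 0.261 CPM in any library. Of the 10, 2 of 3 tested were called higher, and 0 were at 0 in every library. Oligodendrocyte lineage markers, 10 genes, summed to 1696, 450, 1618 and 976 CPM in deleted replicates 1 to 4. In intact libraries the sum was 1363 to 1720 CPM, and 1 of 6 tested genes was called lower. Olig1 and Olig2 made up most of this sum. They stood at 193.5 and 172.5 CPM in deleted replicate 2, and at 542 and 381 CPM in deleted replicate 4. Intact libraries held 732 to 1012 CPM of Olig1 and 518 to 630 CPM of Olig2. Cspg4 was also lowest in these deleted libraries. Pdgfra and Sox10 were instead highest in deleted replicate 2, with Pdgfra at 59.6 CPM against 6.16 to 13.3 CPM in intact libraries. The part of these marker differences in the levels of Tenm4, Adgrl3 and Flrt2 was not tested. Astrocyte markers, 9 genes, summed to 2234, 279, 635 and 605 CPM in deleted replicates 1 to 4 and to 180 to 308 CPM in intact libraries. Of the 9, 3 were called higher, Aqp4, Aldoc and Fgfr3. Aldoc alone stood at 1232, 72.1, 370.5 and 294 CPM in deleted replicates 1 to 4 and at 34.5 to 62.1 CPM in intact libraries. Slc1a2 was at 540, 5.33, 26.8 and 7.30 CPM in deleted replicates 1 to 4. Its intact range was 29.8 to 84.2 CPM. The fitted change was above 0 for 7 of the 9 genes and below 0 for 2, Gja1 and Sox9. Neuron markers, 15 genes, summed to 936 to 1275 CPM in deleted and 1148 to 1207 CPM in intact libraries. Map2 made up most of this sum, at 778 to 1106 CPM in deleted and 1010 to 1056 CPM in intact libraries. Dcx, a marker of young neurons, stood at 0.127, 101, 0.330 and 0.174 CPM in deleted replicates 1 to 4 and at 0.642 to 1.27 CPM in intact libraries. Of 10 tested neuron markers 3 were called lower, Elavl3, Elavl4 and Neurod1, and 0 higher. Stmn2, Neurod2 and Neurod6 had 0 reads in all deleted libraries and were near 0 in intact ones. Microglial markers summed to at most 2.41 CPM in deleted and 3.71 CPM in intact libraries over 8 genes, with C1qa at 0 throughout. Endothelial markers summed to 1.65 to 15.7 CPM in deleted and 3.27 to 6.94 CPM in intact libraries over 6 genes. Tek made up most of the highest sum, at 13.9 CPM in deleted replicate 2, and was not called. Of 2 tested endothelial markers 1 was called lower, Kdr, with 0 to 2 reads in deleted and 10 to 19 in intact libraries. Kdr reached the test through its intact reads, so its call is a description.

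Levels can be compared between genes only per length, here as RPKM (CPM per kilobase of the deposited gene length). In intact cultures the mean RPKM of the latrophilins came first, with Adgrl2 at 14.9, Adgrl1 at 12.7 and Adgrl3 at 10.8, and neighbours in this order overlapped in range. Tenm3 at 3.39, Flrt3 at 2.49 and Flrt2 at 1.97 RPKM formed the next step, again with overlapping neighbours. Tenm4 followed at 0.770 RPKM, apart from the genes on either side of it. Flrt1, Tenm2 and Tenm1 were at 0.0723, 0.0206 and 0.00912 RPKM. In deleted cultures Adgrl1 came first at 14.3 RPKM, its range clear of the next gene, and Tenm3 came seventh at 0.138 RPKM, below Tenm4 at 0.817. From Adgrl2 down to Flrt1 every neighbouring pair in the deleted order overlapped in range.

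**Figure D3:**
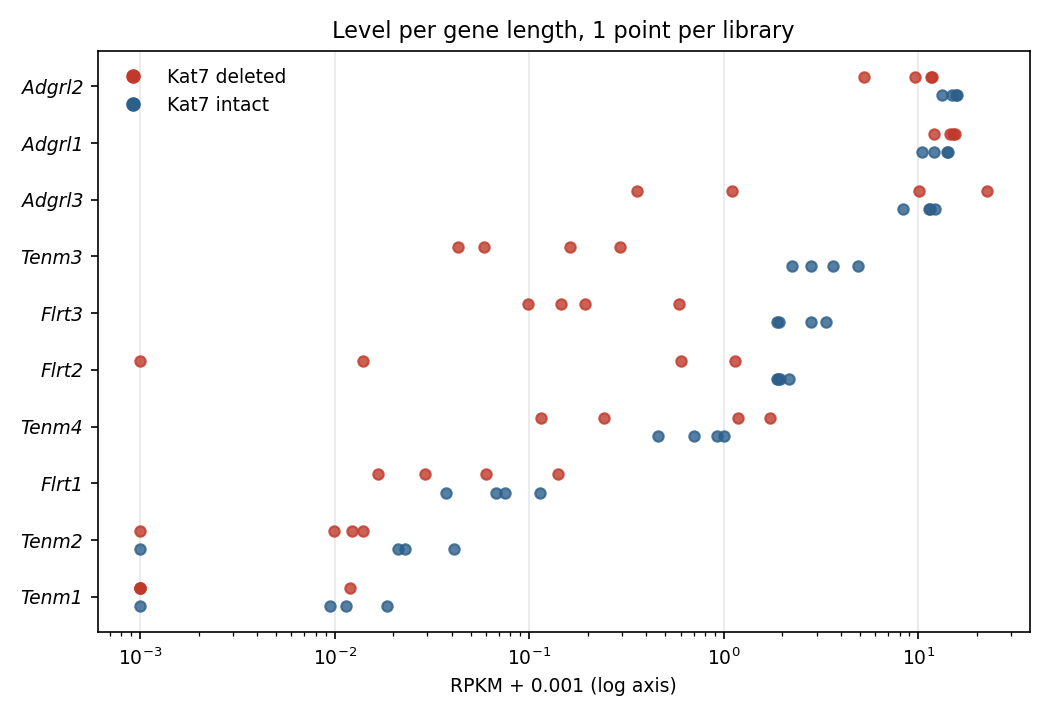
RPKM of each gene with 0.001 added, on a log axis, 1 point per library, deleted above intact in each row and genes ordered by their intact mean. The latrophilins lie highest in intact cultures, and deleted points of Adgrl3, Flrt2 and Tenm4 divide into a lower and an upper pair.

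The genes whose pattern over the 8 libraries was nearest to that of Tenm3 were Ajap1, Csmd1, Fam135b, Adamts19 and Scn7a. Likeness was the root mean square difference of log2 CPM after each gene was centred on its intact mean. It was 0.82 log2 units for Ajap1, an adherens junction-associated protein, 0.82 for Csmd1, a transmembrane protein with complement control repeats, and 0.88 for Fam135b. For Adamts19, a secreted metalloprotease, and Scn7a, of the sodium channel family, it was 0.91 each. The median over the other tested genes with a symbol was 3.50. The 5 genes were picked as the nearest, so that they lie below this median was fixed in advance. The means of the 5 genes were 0.0641 to 0.468 CPM in deleted and 2.72 to 6.99 CPM in intact libraries. At such low deleted levels the log2 values depend on the prior count of 2, so the likeness partly reflects few reads in every deleted library.

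Among 20 further genes of the pathway, 17 were tested, of which 2 were called higher and 2 lower in deleted cultures. The share called over all tested genes was 7.90% for either direction. The median log2 fold change was 0.16 over the 17 and 0.05 over all tested genes. FLRT receptors and binding partners had 1 of 6 tested genes higher and 1 lower. Fgfr1, the fibroblast growth factor receptor with which FLRT proteins interact, stood at 288 ± 27.9 CPM in deleted and 171 ± 18.1 CPM in intact libraries (SD, n = 4 each). Its log2 fold change was 0.75 ± 0.13 (edgeR adjusted p = 0.0150). The Fgfr1 call was lost without intact replicate 1, 2 or 4, under total-count scaling, with replicate number as a block and with littermates summed. Rnd1, a small GTPase that binds FLRT3 in Xenopus, stood at 1.09 ± 0.284 CPM in deleted and 2.52 ± 0.341 CPM in intact libraries, a log2 fold change of -1.19 ± 0.29 (edgeR adjusted p = 0.0443). Rnd1 lost its call when any 1 intact library, deleted replicate 1, 3 or 4, or deleted replicates 1 and 4 together were left out. The Rnd1 call was also lost without a filter on low counts, with litter or replicate number as a block, and with littermates summed. Of the Unc5 receptors Unc5a, Unc5b and Unc5c were tested, with log2 fold changes of -0.45 ± 0.30, -0.40 ± 0.26 and -0.90 ± 0.71, and none was called. Unc5d, the Flrt2 receptor of cortical migration, had 0 to 1 reads in deleted and 3 to 13 in intact libraries and was not tested.

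Of the other latrophilin ligands 1 of 3 was called. Cntn6, a contactin that associates with latrophilin-1, had 1, 0, 0 and 0 reads in deleted replicates 1 to 4 and 22, 25, 26 and 42 reads in intact replicates 1 to 4. The ratio of deleted to intact was 0.0114 with a 95% interval of 0.000287 to 0.0650, which covers counting error only. Cntn6 reached the test through its intact reads alone, so its call is a description, given with no p. With a minimum count of 50 it was not tested. Robo1, a guidance receptor that binds FLRT3, was picked for mention after its values were seen. Robo1 stood at 70.7, 9.46, 49.9 and 3.57 CPM in deleted replicates 1 to 4 and at 51.8 to 92.0 CPM in intact libraries. Deleted replicates 2 and 4 were thus its lowest libraries, which held for 10.5% of all tested genes. Since Robo1 was picked for mention with these values in view, nothing is read from this.

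The G protein and scaffold genes downstream of latrophilins had 1 of 6 tested genes called higher and 0 lower. This was Shank3, a postsynaptic scaffold protein, at 21.3 ± 4.61 CPM in deleted and 12.8 ± 1.25 CPM in intact libraries (log2 fold change 0.74 ± 0.18, edgeR adjusted p = 0.0455). Its call was lost when any 1 intact library, deleted replicate 3, or deleted replicates 1 and 3 together were left out. The Shank3 call was also lost under total-count scaling, without a filter on low counts, with litter or replicate number as a block, and with littermates summed. The 2 tested teneurin binding partners were not called. Dag1, which encodes dystroglycan, a receptor for the extracellular matrix, was the more abundant, at 311 ± 62.7 CPM in deleted and 203 ± 17.0 CPM in intact libraries (SD, n = 4 each). Its log2 fold change of 0.61 ± 0.17 was not called (edgeR adjusted p = 0.0577), although the deleted and intact ranges did not overlap, as was so in this direction for 10.7% of all tested genes. Adgrl4, a latrophilin-related receptor of endothelium, had 0 reads in deleted and 0 to 1 in intact libraries.

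**Figure D4:**
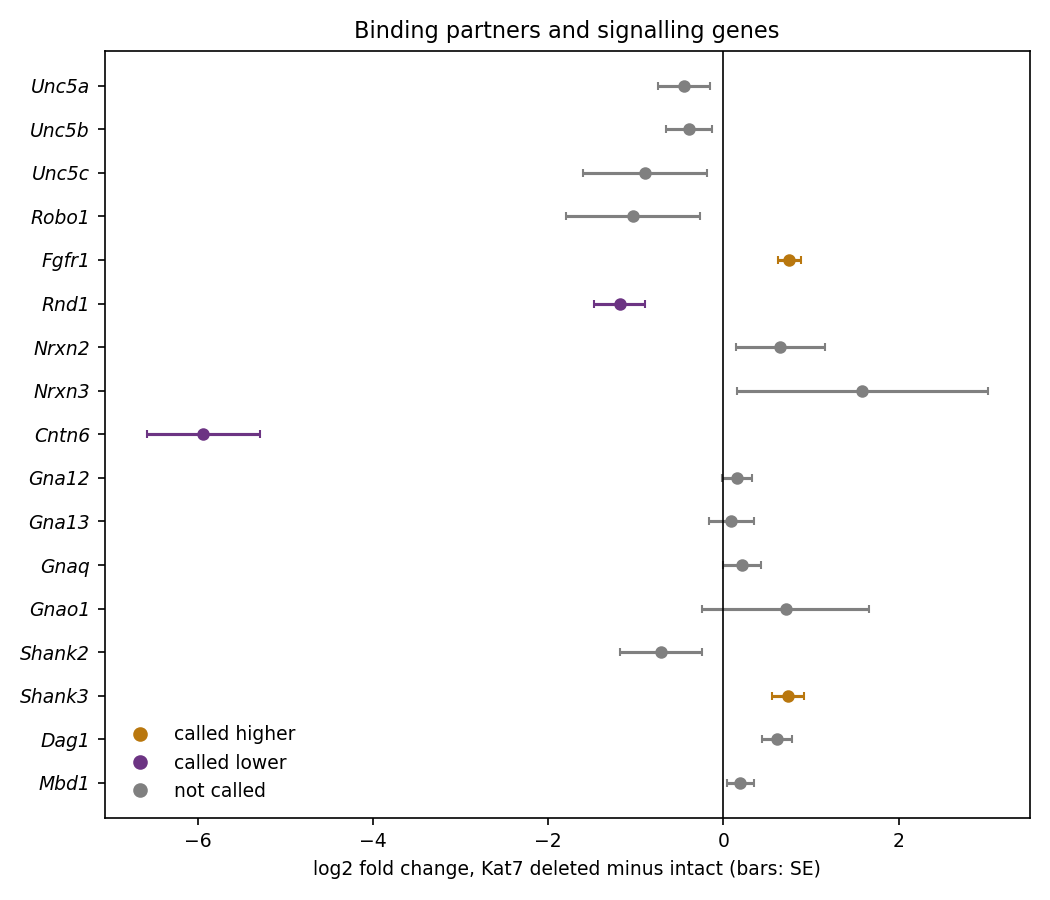
Log2 fold change, deleted minus intact, with its standard error for the 17 tested partner and signalling genes, coloured by call. Fgfr1 and Shank3 lie right of 0 and Rnd1 and Cntn6 left of it, and the position of Cntn6 depends on the prior count because deleted libraries held 1 read in all.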

How the data were processed

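Polyadenylated RNA libraries were read as 100 bp single-end reads, per the labels' protocols. The deposited table holds raw counts per gene, not normalized, and a gene length. The submitters' processing notes name CASAVA 1.8.2, featureCounts and mm10. The aligner and the strand setting are not given in the sources used here. Symbols came from a RefSeq table of GRCm38.p6 by exact Entrez identifier (25275 of 27179 matched), and exon overlaps from GENCODE M21.

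The deposited counts were analysed in edgeR 4.0.16 (R 4.3.3): filterByExpr at a minimum count of 10, TMM scaling, robust dispersions and a quasi-likelihood F test between 4 deleted and 4 intact libraries, with Benjamini-Hochberg adjustment over 13498 genes. Each standard error is the size of the log2 fold change divided by the square root of its F. CPM and RPKM use TMM-scaled sizes, and 1 read was worth 0.0436 to 0.0918 CPM. The procedure was also run on simulated counts, drawn independently for each library. These held no littermates and no division among deleted libraries, so they do not test the fit on data like the present ones. Alternatives were other scalings and filters, DESeq2 1.42.0, limma 3.58.1 with sample weights, blocks for litter or replicate number, summed littermates and left-out libraries. Replicates are separate fetuses.

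The members, gene lists and alternatives were chosen with earlier results of these data known. Named genes were all members, Kat7, called partners (up to 4 a list), the most abundant tested partner of a list with no call, and the 5 genes nearest to the member with the largest change. The Unc5 receptors, Robo1 and Adgrl4 were named after their values were seen. Some genes of the partner lists are not reported here.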

Additional observations from a re-analysis of the deposited data

Results flagged for a closer look

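Tenm1 stood at 0.0918 CPM in deleted replicate 2, against 0 CPM in the other 3 deleted libraries, so that library lay apart from its group by Dixon's test. The value is 1 read. Among 22 sets of 4 libraries examined (the 10 genes and Kat7 in each genotype) this was the only 1 set apart. With 0 reads in the other 3 libraries, any read at all passes this test. The usual chance of about 1 in 20 is meant for continuous values and does not apply to such counts, so nothing is read from the flag.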

How the results depend on the processing

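As a description of the libraries that also guided the choice of these genes, Tenm3 was called lower in all 21 settings, the main one and 20 alternatives, with log2 fold changes from -5.22 to -4.32, and Flrt3 in 18, from -4.11 to -2.68. The number of genes called, 1066, became 673 with total counts alone, 2200 with DESeq2, 2283 with limma-voom and sample weights, 414 with litter as a random block, 193 with littermates summed and 2299 without deleted replicates 1 and 3, and 189 to 2182 with each library left out. The 2 calls among the 7 tested family genes became 1 with littermates summed, 5 without deleted replicates 1 and 3, and 1 to 3 with each library left out. The 4 partner calls became 2 with total counts alone, no filter or the litter block. They became 1 with littermates summed and 1 to 5 with each library left out. With a minimum count of 50, Rnd1 and Cntn6 were not tested, and 2 of 13 tested partner genes were called. The log2 fold change of Kat7 passed the threshold at -4.10 with limma-voom and sample weights and at -8.51 without deleted replicates 1 and 3, which were left out because they held Kat7 reads, and was -4.03 to -2.62 with each library left out.

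With the replicate number as a block, 319 genes were called, with 1 partner gene and 2 family genes, Tenm3 and Flrt3, among them, and Tenm4 was at -0.54. The numbers are not shown to pair the libraries: deviations of same-numbered libraries correlated across genes at 0.10, 0.22, 0.11 and 0.33 for replicates 1 to 4. Tenm4 was also at -0.004 with total counts alone, -0.17 with the litter block, -2.11 without deleted replicates 1 and 3, and -0.57 to 0.46 with each library left out. Adgrl3 was at -1.48 to 0.057 with each library left out. The cause of these shifts was not tested. Tenm1, Tenm2 and Flrt1, with 0 to 13 reads a library, reached a test only without a filter on low counts, and the number of family genes called stayed at 2 there.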
